A study of Mus musculus with 6 samples.

Results

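The genes described here encode the enzymes that oxidize, reduce and conjugate drugs and aldehydes. They were taken as every array probe with a single gene symbol in the families Cyp (cytochromes P450), Adh (alcohol dehydrogenases), Aldh (aldehyde dehydrogenases), Akr (aldo-keto reductases), Gst (cytosolic glutathione S-transferases, by class), Ugt (UDP-glycosyltransferases), Sult (sulfotransferases) and Fmo (flavin monooxygenases). This gave 59 probes for 45 genes, among 15114 probes with 1 gene symbol that name 9107 genes. The Cyp family had 18 probes for 15 genes, Aldh had 13 probes for 13 genes, Gst had 13 probes for 7 genes and Akr had 12 probes for 7 genes. Adh had 2 probes for 2 genes and Ugt had 1 probe, for Ugt8a. No probe with a single symbol named an Fmo or a Sult gene. Of the 45 genes, 36 had 1 probe and 9 had 2 or more, with Gstm2 the most often spotted at 5 probes.

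Kidneys of male Swiss albino mice aged 8 to 10 weeks were compared on 6 arrays of 2 colours, in which drug-treated and vehicle-treated RNA were labelled with Cy5 and Cy3 and read together on the same spots. The 3 treatments were amodiaquine at 120 mg/kg, SP (named Sulfodoxine-Pyrimethamine in the labels; sulfadoxine at 300 mg/kg with pyrimethamine at 15 mg/kg), and amodiaquine+SP at these same doses together. All 3 are antimalarial regimens, and each was set against vehicle-treated (DMSO) mice of the same strain, sex and age. Tissue was taken about 24 hours after the drug, the series gives 4 mice per group, and 25 ug of total RNA went into each labelling. Each treatment had 2 arrays, a forward one (replicate 1) with treated RNA in Cy5 and a reverse one (replicate 2) with treated RNA in Cy3. The labels do not say whether the RNA of the mice was pooled or whether both arrays carried separate extracts, so a p-value here may measure only technical spread. All treatments share the vehicle group.

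Drug metabolism runs in steps. Cytochromes P450 insert oxygen into a drug, with electrons passed to them by partner proteins. Alcohol and aldehyde dehydrogenases and aldo-keto reductases convert the alcohols and reactive aldehydes that arise, and glutathione S-transferases and other conjugating enzymes attach a polar group that eases excretion. In the kidney these enzymes lie largely in the proximal tubule, where they also handle retinoids, arachidonic acid, vitamin D and steroids.

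A limit of the arrays comes before the results. The files of both SP arrays hold 1 scan read with different grid placements and carry opposite labels, and so do the files of both amodiaquine+SP arrays. Between the paired files 36.9% of the Cy3 and 34.4% of the Cy5 foreground values were shared for SP, and 41.9% and 28.2% for amodiaquine+SP, against 0.091% and 0.122% between both amodiaquine arrays. This leaves 4 scans: amodiaquine replicate 1, amodiaquine replicate 2, SP and amodiaquine+SP. For SP and amodiaquine+SP it is therefore unsettled which dye held the treated RNA, so ratios are given as Cy5 over Cy3, with no direction by treatment and no test.

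The reading grid was also displaced by 1 to 3 rows or columns in part of the 48 blocks of an array (480 spots each). A block was called in register when neither dye was displaced against the pattern common to the scans and the dyes correlated with a rank coefficient of at least 0.5. Of the main 4 files, the SP one had 36 such blocks and the amodiaquine+SP one 30. Amodiaquine replicates 1 and 2 had 23 and 32, with 17 shared. Only 10.9% to 15.1% of spots per file and dye were above background, taken as a signal-to-noise ratio of at least 2 over a recorded background above 0. Probe names were placed by a reordering of the 48 blocks, checked on 131 ribosomal protein probes, whose mean rank within a block was 0.821 at their named place and at most 0.601 at 24 displaced places.

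The kidney label was checked with marker genes, using the brightness rank of a spot: its place among all spots of an array by background-corrected intensity, from 0 for the dimmest to 1 for the brightest, as the mean of both dyes and then of the scans in register. The 5 ranked proximal tubule genes had a median of 0.893, with Slc27a2 (a fatty acid transporter) at 0.964 ± 0.014 (SD, n = 3 scans), Miox (myo-inositol oxygenase) at 0.954 ± 0.004 (n = 2) and Lrp2 (megalin) at 0.893 ± 0.062 (n = 4). The water channel Aqp1 ranked 0.733 ± 0.138 (n = 3), with 1 of 6 readings above background, and Gatm, of creatine synthesis, 0.560 ± 0.382 (n = 3). Of 4 ranked genes of the loop, distal tubule and collecting duct, Umod (uromodulin) ranked 0.956 ± 0.022 (n = 4), Calb1 0.812, Slc12a1 0.758 and Slc4a1 0.218. The podocyte gene Podxl ranked 0.616, the endothelial Cdh5 and Pecam1 0.457 and 0.301, the T cell gene Cd3e 0.614, the erythroid Alas2 0.237 and the adipocyte Plin1 0.239. Albumin, a liver marker, ranked 0.690 and was above background in 3 of 8 readings. Of 3 ranked adrenal markers, Mc2r ranked 0.734, Hsd3b1 0.696 and Star 0.556. They were above background in 2 of 6, 1 of 6 and 0 of 8 readings. Each marker is given by 1 probe, although Calb1 has 4 probes and Lrp2, Cdh5, Pecam1 and Hsd3b1 have 2 each. A rank describes how bright a spot is and not how abundant an RNA is, since probes differ in sequence, labelling and binding.

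By the mean of the scan medians, glutathione S-transferases ranked highest of the enzyme families with more than 2 probes, at 0.743, and cytochromes P450 lowest, at 0.408. The order was not the same in each scan: for amodiaquine+SP, Akr at 0.771 lay above Gst at 0.742, and Aldh at 0.489 below Cyp at 0.543. Of the 59 enzyme probes, 42 (33 genes) were in register in at least 2 scans and 12 in all 4, and the other 17 were in register in 1. The 42 had a median rank of 0.507, beside 0.468 for 11027 named probes under the same rule. Of these 42, 8 (19.0%) ranked above 0.8, beside 14.6% of named probes, and 14 (33.3%) had at least 1 reading above background, beside 26.4%. The other 28 were never above background in register. Of the 42, 6 were above background in at least 50% of their readings. These were Akr1c13, Gstm5, Adh1, Akr1a1 probe 7237, Gstp1 probe 11418 and Gstm2 probe 3071. The other probes of Akr1a1, Gstp1 and Gstm2 in register in at least 2 scans were under 50%. This count has no share over named probes beside it. The 8 probes above rank 0.8 were 5 of Gst, 2 of Akr and 1 of Adh. In these whole-tissue samples a dim spot from few expressing cells and one from little RNA per cell cannot be told apart.

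**Figure D1:**
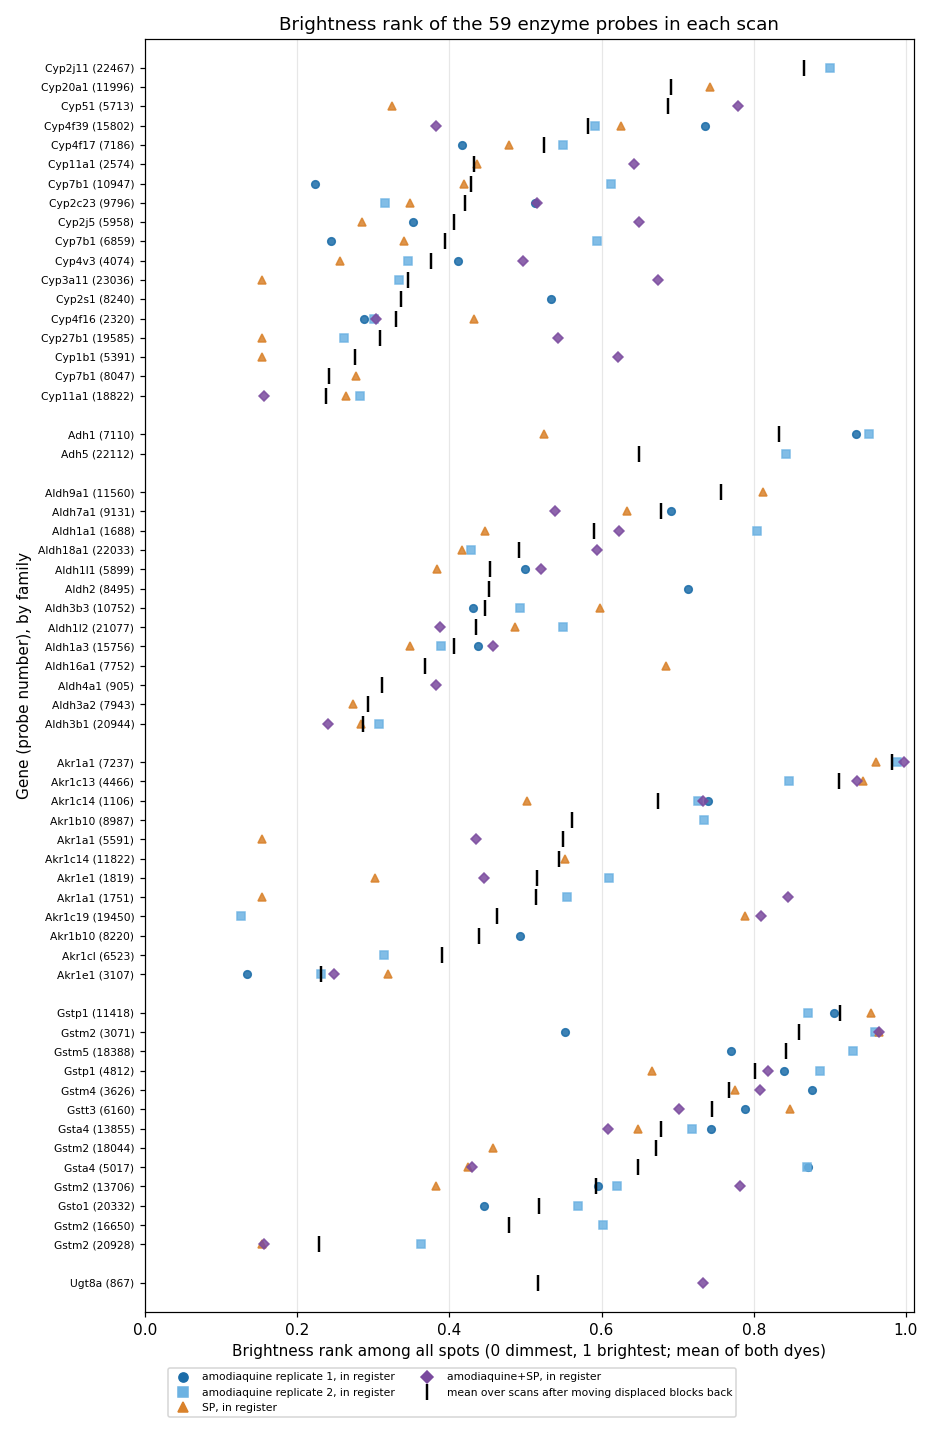
Brightness rank (x axis, 0 to 1, mean of both dyes) of the 59 enzyme probes (y axis, gene and probe number, grouped by family) in each scan where the block was in register, with a black bar for the mean over scans after displaced blocks were moved back. The Gst and Akr families reach above 0.9 with Gstp1, Akr1c13 and Akr1a1, most Cyp probes lie below 0.6, and probes of Gstm2 and Akr1a1 spread widely.

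Cytochromes P450 were near background. The family's median rank was 0.411 and 0.346 on amodiaquine replicates 1 and 2, 0.333 for SP and 0.543 for amodiaquine+SP, a mean of 0.408 ± 0.096 (SD, n = 4 scans). All named probes had 0.487 ± 0.031. The median signal-to-noise ratio of 92 Cyp readings in register was 0.18 and the highest was 3.98. Of the 14 Cyp probes in register in at least 2 scans, 1 was ever above background.

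That probe was Cyp4f39, which belongs to the fatty acid hydroxylases of the Cyp4f group. It was the brightest Cyp probe among the 14, with ranks of 0.736, 0.591, 0.625 and 0.382 in the 4 scans (mean 0.583 ± 0.148) and 2 of 8 readings above background, both in Cy5. Its groupmates Cyp4f17 and Cyp4f16 ranked 0.482 ± 0.067 (n = 3) and 0.332 ± 0.068 (n = 4), never above background.

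Cyp2j5 and Cyp2c23 belong to the P450 groups that turn arachidonic acid into epoxides in the kidney. Cyp2j5 read 187 and 0 in Cy3 and Cy5 of amodiaquine replicate 1, 0 and 110 for SP, and 497 and 323 for amodiaquine+SP, a mean rank of 0.429 ± 0.194 (n = 3). Cyp2c23 had ranks of 0.513, 0.316, 0.348 and 0.515, a mean of 0.423 ± 0.106, and its brightest reading was 366 over a local background of 911. Neither gene had a reading above background. Cyp2j11, a relative of Cyp2j5, was in register in amodiaquine replicate 2 only and was bright there, at 2151 in Cy3 and 2867 in Cy5, both above background, with rank 0.900. With displaced blocks moved back it ranked 0.866 ± 0.029 over 4 scans, the highest of all Cyp probes.

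The P450 enzymes of sterol and vitamin metabolism had no reading above background in register. Cyp51, the lanosterol demethylase of cholesterol synthesis, ranked 0.325 for SP and 0.780 for amodiaquine+SP. With displaced blocks moved back it ranked 0.688 ± 0.25 over 4 scans, with 3 of 8 readings above background. Cyp27b1, which makes the active form of vitamin D, ranked 0.319 ± 0.201 (n = 3), and read 0 in both dyes in SP. The oxysterol hydroxylase Cyp7b1 ranked 0.418 and 0.393 on the pair of probes in register in 3 scans. Cyp11a1, the side-chain cleavage enzyme of steroid synthesis, gave the lowest Cyp rank at 0.234 ± 0.068 (n = 3), and 0.540 ± 0.146 (n = 2) on its other probe. Cyp3a11, a main drug-oxidizing P450 of mouse liver, ranked 0.334, 0.154 and 0.674 in amodiaquine replicate 2, SP and amodiaquine+SP, with no reading above background. Cyp1b1, which oxidizes estrogens and aromatic hydrocarbons, ranked 0.154 and 0.622 in SP and amodiaquine+SP. A rank of 0.154 in SP stands for a spot at 0 in both dyes, which was the case for 6 enzyme probes in register there, those for Cyp1b1, Cyp27b1, Cyp3a11, 1 of Gstm2 and 2 of Akr1a1.

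Among the alcohol dehydrogenases, Adh1, which oxidizes ethanol and retinol, was bright on both amodiaquine arrays. It read 1747 in Cy3 and 9592 in Cy5 on replicate 1, and 3543 and 10176 on replicate 2, with ranks of 0.934 and 0.952. In SP it read 1812 in Cy5 but 0 in Cy3, where the local background was 3524 against a median of 1180 over the array. Its mean rank was therefore 0.804 ± 0.242 (n = 3). Adh5, which oxidizes the glutathione adduct of formaldehyde, was in register once, in amodiaquine replicate 2, at 1696 in Cy3 and 1030 in Cy5 (rank 0.842), with Cy3 above background.

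Aldehyde dehydrogenases showed the narrowest spread over scans. Their median rank was 0.499, 0.461, 0.447 and 0.489, a mean of 0.474 ± 0.024 (n = 4 scans), beside 0.487 for all named probes. The highest signal-to-noise ratio of 59 Aldh readings in register was 1.71, so none of the 13 genes had a reading above background there. Over all blocks with displaced ones moved back, Aldh7a1, Aldh9a1 and Aldh18a1 each had 1 of 8 readings above background. The brightest in at least 2 scans were Aldh1a1, which makes retinoic acid from retinal, at 0.625 ± 0.178 (n = 3), and Aldh7a1, of lysine breakdown, at 0.621 ± 0.077 (n = 3). Aldh3b1 was the dimmest at 0.278 ± 0.035 (n = 3).

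Other Aldh genes lay between these. Aldh3b3 ranked 0.507, Aldh18a1, of proline synthesis, 0.479, Aldh1l2 0.474 and Aldh1l1, both of folate metabolism, 0.468, and these neighbours did not differ beyond their SDs of 0.074 to 0.099. Aldh1a3, a further retinal-oxidizing enzyme, ranked 0.408 ± 0.049 (n = 4). Aldh9a1, of carnitine synthesis, ranked 0.812 and the mitochondrial acetaldehyde-oxidizing Aldh2 0.713, each in register in 1 scan. After displaced blocks were moved back these values were 0.757 ± 0.120 and 0.452 ± 0.181 over 4 scans.

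Aldo-keto reductases held the brightest enzyme spot of all and some of the dimmest. The family's median rank was 0.493, 0.610, 0.502 and 0.771 in the 4 scans, a mean of 0.594 ± 0.129. Akr1a1, the aldehyde reductase that in mice also serves vitamin C synthesis, was brightest on probe 7237. There it read 13158 in Cy3 and 27001 in Cy5 on amodiaquine replicate 2, and 5467 and 9362 for SP. The amodiaquine+SP scan gave 94279 in Cy3 and 43123 in Cy5. All 6 readings were above background, with a mean rank of 0.982 ± 0.019 (n = 3). In Cy3 of amodiaquine+SP this spot was among the very brightest of the array, while spots 3 columns to either side read 4295 and 2377, against 5099 and 2327 in SP.

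Akr1c13, a hydroxysteroid dehydrogenase, read 746 in Cy3 and 8359 in Cy5 on amodiaquine replicate 2, 3371 and 7321 for SP, and 3653 and 5633 for amodiaquine+SP. It ranked 0.909 ± 0.054 (n = 3), with 5 of 6 readings above background. Its relative Akr1c14, a steroid reductase, ranked 0.740, 0.727, 0.502 and 0.733 in the 4 scans without a reading above background. Akr1c19 was uneven, at 0.126, 0.788 and 0.809. The dimmest of the family was Akr1e1, a reductase of anhydrofructose, at 0.233 ± 0.076 (n = 4) on one probe and 0.453 ± 0.154 (n = 3) on the other.

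Glutathione S-transferases ranked high as a family, with median ranks of 0.779, 0.795, 0.657 and 0.742, a mean of 0.743 ± 0.062 (n = 4 scans). The median signal-to-noise ratio of 72 Gst readings in register was however 0.91, under the bound of 2, and the highest was 11.73. Per scan and dye, 12.5% to 40.0% of Gst probes in register were above background, beside 11.3% to 16.1% of named probes. Of the 11 probes in register in at least 2 scans, 9 had a reading above background. For Gsta4 probe 13855 and Gstm2 probe 13706 this was 1 of 8 readings, and for Gstt3 1 of 6. Gstp1, the pi-class enzyme, read 1161 in Cy3 and 5325 in Cy5 in amodiaquine replicate 1, 2211 and 1383 in amodiaquine replicate 2, and 5045 and 7080 in SP on probe 11418. It ranked 0.910 ± 0.042 (n = 3), and its second probe 0.803 ± 0.096 (n = 4). The mu-class Gstm2 on probe 3071 read 6431 and 7651 in amodiaquine replicate 2, 6283 and 8956 for SP, and 6414 and 12289 for amodiaquine+SP. In amodiaquine replicate 1 it read 14934 in Cy5 and 0 in Cy3, over a local Cy3 background of 1485 against an array median of 217. Its mean rank was 0.860 ± 0.205 (n = 4), with 7 of 8 readings above background.

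The other mu-class genes also ranked high, with Gstm5 at 0.850 ± 0.114 (n = 2) and Gstm4 at 0.820 ± 0.051 (n = 3). Above background were 3 of 4 readings of Gstm5 and 2 of 6 of Gstm4. Gstt3, of the theta class, followed at 0.779 ± 0.073 (n = 3). Gsta4, the alpha-class enzyme that conjugates the lipid aldehyde hydroxynonenal, ranked 0.680 ± 0.063 and 0.649 ± 0.256 (n = 4) on its pair of probes. The dimmest gene by its brightest probe was Gsto1, of the omega class, at 0.507 ± 0.087 (n = 2). Ugt8a, which makes galactosylceramide and was the 1 Ugt gene named by a probe with a single symbol, was in register in amodiaquine+SP only, at rank 0.734.

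**Figure D2:**
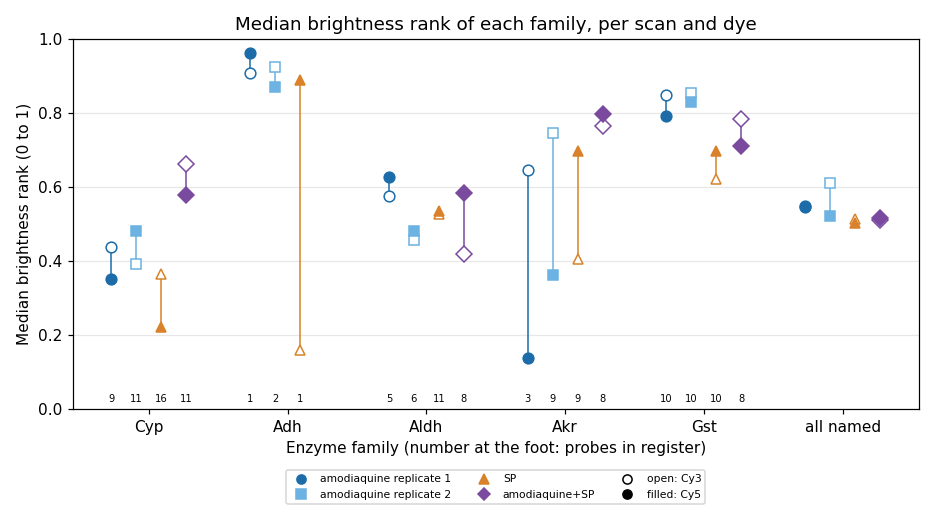
Median brightness rank (y axis, 0 to 1) of each enzyme family and of all named probes (x axis) in the 4 scans, with open symbols for Cy3 and filled ones for Cy5, and the number of probes in register at the foot. Gst lies above all named probes in every scan and dye, Cyp lies below them in 3 of 4 scans, and the Akr medians of Cy3 and Cy5 lie far apart in 3 of 4 scans.

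The order of the families was compared over scans. Gst exceeded Cyp in 4 of 4 scans, by 0.335 ± 0.104 in rank (SD; 0.199 to 0.448), and Akr exceeded Cyp in 4 of 4, by 0.186 ± 0.079. Aldh exceeded Cyp in 3 of 4 scans, by 0.066 ± 0.081, a difference smaller than its spread. Adh exceeded Cyp in 3 of 3 scans, by 0.422 ± 0.199, but its median rested on 1, 2 and 1 probes in register, with Adh1 in each. In a two-sided exact sign-flip permutation test over scans, p was 0.125 for Gst and for Akr, the smallest that 4 scans allow, and 0.25 for Aldh and for Adh. Adjusted over the 4 families, p was 0.25 for each, so no family passed and none could have. In amodiaquine+SP the Cyp median of 0.543 lay above that of all named probes, 0.464, while in the other scans it lay below.

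Probes of 1 gene did not always give like ranks. After displaced blocks were moved back, the 2 probes of Gsta4 differed by 0.030 in mean rank and those of Gstp1 by 0.112. The 5 probes of Gstm2 ran from 0.229 to 0.860 and the 3 of Akr1a1 from 0.514 to 0.982. Single probes of Gstm2 and Akr1a1 therefore do not stand for the gene in the comparisons that follow.

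The other genes of drug metabolism on the array are given for context, each ranked by 1 probe even where it has several. Of 7 genes listed as electron donors, 5 were on the array and 3 were ranked. Cyb5b ranked 0.975, Cyb5a 0.866 and Cyb5r3 0.296, a median of 0.866. P450 reductase (Por) was not among these 3, so the median does not describe the electron supply of the P450s. Of other enzymes that oxidize, reduce or hydrolyse drugs, 5 were ranked with a median of 0.724, led by the epoxide hydrolase Ephx2 at 0.858. Of other conjugation and glutathione supply genes, 7 were ranked with a median of 0.515, led by Tpmt (thiopurine methyltransferase) at 0.835 and Mgst1 (a membrane-bound glutathione transferase) at 0.824. The 5 ranked regulators had a median of 0.494, with Arnt, the partner of the aryl hydrocarbon receptor, at 0.670. The 8 ranked drug transporters had a median of 0.539, led by Slc22a5, a carnitine carrier, at 0.917 and the efflux pump Abcc1 at 0.841. In the amodiaquine test described next, 2 probes of the electron donors, 3 of each enzyme list, 2 of the transporters and 0 of the regulators could be tested, and none passed.

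Amodiaquine against vehicle was the 1 comparison with 2 distinct arrays. Log2 ratios after normexp background correction (offset 50) and loess within each block were turned to treated over vehicle by the labelled dyes and fitted with limma. With 2 arrays the fit could hold no dye term, so the dye bias of a probe went into its residual. The SE and p therefore measured dye bias together with other spread, and a probe that did not pass cannot be called unchanged. A probe entered when at least 1 dye was above background on each array, which 12 of the 59 enzyme probes (10 genes) and 3020 probes of all kinds did. No enzyme probe passed a Benjamini-Hochberg adjusted p under 0.05, against 0.0% of the 3020 probes, and the smallest adjusted p of any probe was 0.630. At an unadjusted p under 0.05 the counts were 0 of 12 and 81 of 3020. Of the 12, 9 had ratios above 0 and 3 below, beside 1601 above and 1419 below among the 3020. The 9 included all 3 probes of Akr1a1. The median log2 ratio of the 12 was 0.39, beside 0.03 over all tested probes. Both arrays had the same sign for 9 of the 12, and for 1059 of the 3020. With displaced blocks moved back, 11 of the 12 kept a ratio, 7 above 0 and 4 below, and the arrays had the same sign for 6 and opposite signs for 5. These moved-back counts have no share over all probes beside them. Akr1a1 probe 5591 then moved from a mean of 0.14 to -0.53. Only 5 of the 12 lay in a block in register on both arrays. None of the Aldh probes was tested.

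The 5 enzyme genes with the smallest p on the higher side were Akr1a1, Gstm2, Gstp1, Cyp51 and Gstm5. For Akr1a1 probe 1751 the turned log2 ratios were 0.52 and 2.88, a mean of 1.70 ± 0.83 (SE). On that probe the reverse array read 7565 in Cy3 and 0 in Cy5, so the ratio rests on 1 dye. Gstm2 probe 3071 had 1.5 and 0.55, a mean of 1.02 ± 0.60, and its forward array is the one with 0 in Cy3 over a raised local background. Gstp1 probe 11418 had 0.69 and 0.50, a mean of 0.60 ± 0.54, in register on both arrays but with 1 dye above background on each. Probe 4812 of Gstp1 was in register on both arrays and was not tested. Its Cy5 over Cy3 log2 ratios were -1.05 and -0.57, which once turned are opposite in sign. Cyp51 had 0.59 and 0.25, a mean of 0.42 ± 0.55, out of register on both arrays. With its grids moved back, Cy3 on the forward array went from 0 to 2345 and the turned ratios became -0.76 and 1.33, opposite in sign. Gstm5 had 0.73 and 0.01, a mean of 0.37 ± 0.58.

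On the lower side were Cyp20a1, Akr1c13 and Gsta4. Cyp20a1, a P450 with no settled substrate, had -1.47 and -0.14, a mean of -0.81 ± 0.65, out of register on both arrays. Akr1c13 had -1.08 and -0.10, a mean of -0.59 ± 0.60. With its displaced Cy5 grid on the forward array moved back, from a reading of 862 to one of 8805, the mean became -0.12. Gsta4 probe 5017 had -0.33 on each array, with an SE of 0.54, in register on both but with 1 dye above background on each. Probe 13855 of Gsta4 was in register on both arrays and was not tested. Its Cy5 over Cy3 log2 ratios were -1.68 and -0.44, which once turned are opposite in sign. Each of the 12 tested probes had a limma adjusted p of 0.9999, and each mean was less than 2.1 SE from 0.

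Probes in a block in register whose spot exceeded background in Cy3 and in Cy5 are called well measured. On amodiaquine replicate 1, Adh1 was the 1 well-measured enzyme probe, and it was past 1.5-fold toward Cy5, beside 15.7% of 599 named probes (20.7% were past it toward Cy3). On replicate 2 there were 5, namely Adh1, Akr1a1, Cyp2j11, Gstm2 and Gstm5, of which 0 were past 1.5-fold toward Cy5, beside 14.6% of 915, and 1, Akr1a1 at -0.62, toward Cy3, beside 20.5%. Adh1 was thus the 1 enzyme probe well measured on both arrays, among 241 named probes. Its Cy5 over Cy3 log2 ratios were 1.34 on replicate 1 and 0.52 on replicate 2, although the labels place the treated RNA in Cy5 on the first and in Cy3 on the second. Turned, these were 1.34 and -0.52, a mean of 0.41 ± 0.74 (SE). Adh1 was thus brighter in Cy5 on both arrays, whichever RNA the labels place there. Over the 241 probes the unturned ratios of both arrays correlated at r = 0.778 across probes, which share labelling and array. None of the 241 was at least 1.5-fold higher, and none at least 1.5-fold lower, on both arrays once turned (0.0% each way), while unturned 8.71% leaned to Cy5 and 16.6% to Cy3 on both.

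**Figure D3:**
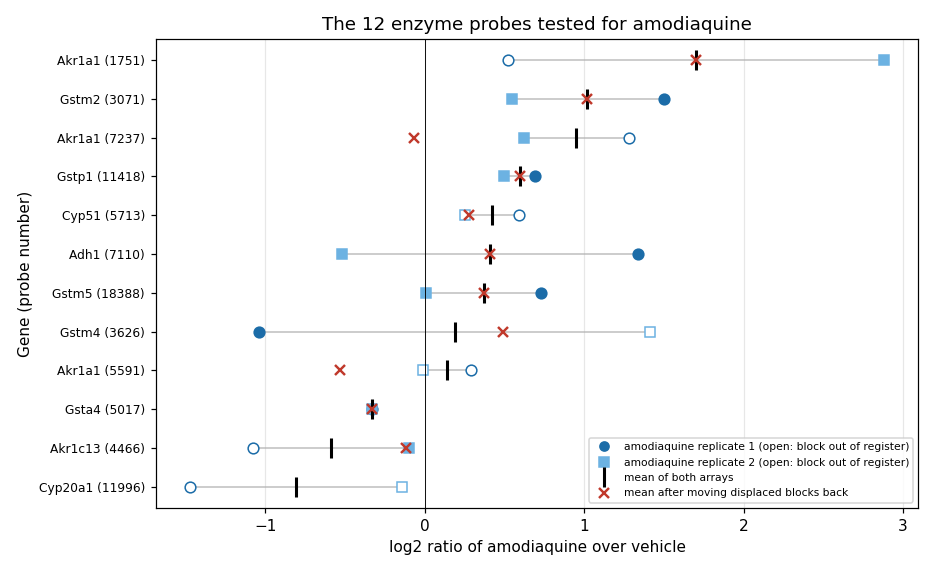
Log2 ratio of amodiaquine over vehicle (x axis) for the 12 tested enzyme probes (y axis), with symbols for each array (open where the block was out of register), a black bar for their mean and a red cross for the mean after displaced blocks were moved back. As read, the arrays lie on opposite sides of 0 for Adh1, Gstm4 and Akr1a1 probe 5591, and the mean of Akr1a1 probe 7237 moves from 0.95 to -0.07.

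Akr1a1 probe 7237 shows what a displaced grid does to a bright spot. On the forward amodiaquine array Cy5 read 18911 at the probe's place, but Cy3 read 74 there and 10620 in the next column. As read, the unnormalized log2 ratio of Cy5 over Cy3 was 8.00, and with the Cy3 grid moved back it was 0.83, close to the 1.04 of the reverse array. After loess the turned mean was 0.95 as read and -0.07 after moving back. The authors' processed log ratios gave 3.91 for the same spot, and subtraction of the background in place of normexp gave 3.16. The size of this ratio thus depended on the processing, and it did not pass the limma test under any of these settings.

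**Figure D4:**
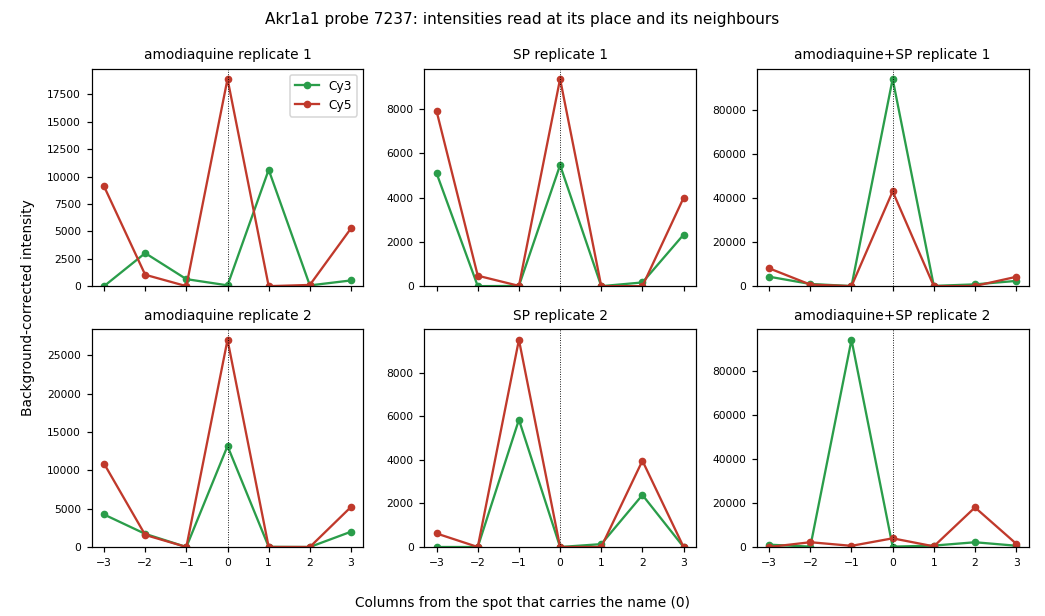
Background-corrected intensity (y axis, linear, scaled per panel) at the place of Akr1a1 probe 7237 (0 on the x axis) and up to 3 columns to either side, in green for Cy3 and red for Cy5, in each of the 6 files. The Cy3 peak of 10620 lies 1 column to the right in amodiaquine replicate 1, the Cy3 peak of 94279 lies at the place in amodiaquine+SP replicate 1 and 1 column to the left in replicate 2, and the Cy5 peak of that last file falls in another row.

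Before any normalization, most enzyme readings above background in both dyes were brighter in Cy5. With displaced blocks moved back, 20 readings of 10 enzyme probes were above background in both dyes, and Cy5 exceeded Cy3 in 17 of them. Named probes of the same quality leaned the same way, with Cy5 brighter for 84.6% of 958 and 85.5% of 1083 on amodiaquine replicates 1 and 2, 71.7% of 1249 for SP and 79.8% of 1389 for amodiaquine+SP. The 3 enzyme readings brighter in Cy3 were Cyp51 at -0.29 and Gstm2 probe 18044 at -0.10 in amodiaquine replicate 1, and Akr1a1 probe 7237 at -1.13 in amodiaquine+SP.

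SP was measured in 1 scan, with 4 well-measured enzyme probes. Their log2 ratios of Cy5 over Cy3 after loess were 0.80 for Akr1c13, 0.31 for Akr1a1, 0.21 for Gstm2 and 0.08 for Gstp1. Their median was 0.26, beside 0.09 over 1015 named probes with the same quality. Akr1c13 alone was past 1.5-fold toward Cy5, 1 of 4 beside 5.62% of the 1015, and none was past it toward Cy3, beside 13.2%. The second file of the scan gave 0.77, 0.22, 0.16 and 0.38 for the same probes once its displaced grid was moved back, and -0.02, -0.29, 4.03 and 0.40 as read. The SD of the difference between both readings after moving back was 0.35 over 948 probes, a reading error only, since both share the spots and dyes of 1 scan. With 1 scan and unsettled dyes, none of these has a test or a direction by treatment.

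Amodiaquine+SP was likewise measured in 1 scan, with 3 well-measured enzyme probes. Gstm2 had a log2 ratio of Cy5 over Cy3 of 0.33 and Akr1c13 of -0.03, and Akr1a1 of -4.29. Akr1a1 was 1 of 3 past 1.5-fold toward Cy3, beside 8.97% of 914 named probes, and 0 of 3 were past it toward Cy5, beside 7.55%. The size of the Akr1a1 ratio turned on the normalization. It was -1.13 between the corrected intensities, -1.96 with background subtraction and -3.05 with loess over the whole array, all toward Cy3. The second file of the scan gave -2.39 once its grids were moved back, but 3.82, toward Cy5, as read. The SD between readings after moving back was 0.47 over 1023 probes. In the other 3 scans, with displaced blocks moved back, the unnormalized ratio of this probe was 0.83, 1.04 and 0.78, toward Cy5. Its Cy3 reading of 94279 compares with 5467 to 13158 in the other scans, and what set it apart was not tested.

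**Figure D5:**
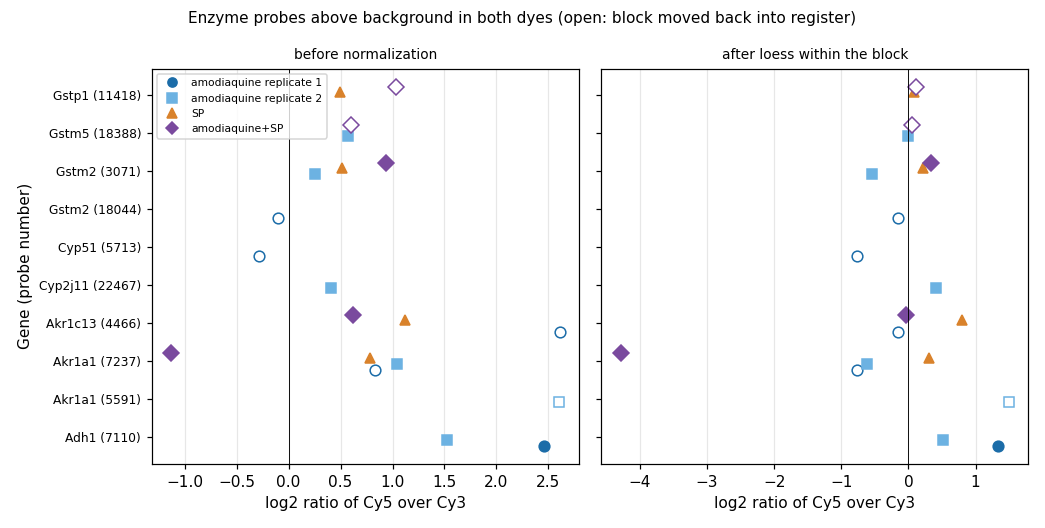
Log2 ratio of Cy5 over Cy3 (x axes) before normalization (left) and after loess within the block (right) for the enzyme probes above background in both dyes (y axis), by scan, with open symbols where a block was moved back into register. Before normalization 17 of 20 readings lie to the right of 0, and Akr1a1 probe 7237 in amodiaquine+SP moves from -1.13 to -4.29.

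Readings with only 1 dye above background gave the remaining ratios. In SP, Adh1 had a log2 ratio of Cy5 over Cy3 of 2.94 and Cyp4f39 of 1.47, with Cy3 at 0 and 60. In amodiaquine replicate 2, Akr1a1 probe 1751 had -2.88, with Cy5 at 0. Over all enzyme probes in register with at least 1 dye above background, the median was 0.69 (n = 7 probes) on amodiaquine replicate 1 and -0.14 (n = 14) on replicate 2. It was 0.31 (n = 7) for SP and -0.03 (n = 7) for amodiaquine+SP. Those of all named probes lay between -0.01 and 0.11. No Aldh probe reached background in any scan in register, so the aldehyde dehydrogenases have no ratio for any treatment, and the Cyp family has 2 ratios in amodiaquine replicate 2 and 1 in SP.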

How the data were processed

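Per the series' design text, images were scanned with ImageQuant 5.0, spots were extracted with ArrayVision 8.0, and the authors made LOWESS-normalized log2 ratios in Avadis 4 and averaged duplicate spots. The deposited spot files give foreground, background and background-corrected intensity per dye and a signal-to-noise ratio. No source used here gives a genome build. The authors' log2 values, used as an alternative, have medians of -0.068 to 0.115 per array. Their centring is not stated, and their scale and direction were read from a correlation of 0.972 to 0.997 with the log2 ratio of corrected intensities. Names came from the platform annotation: of 23040 spots, 15114 have 1 gene symbol, 206 several and 7720 none named here. All 59 enzyme probes matched RefSeq symbols.

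Grid displacement (up to 3 rows or columns) was found in Python 3.11.15 with numpy 2.4.6 against the consensus of 8 dye images. Ratios were made with limma 3.58.1 in R 4.3.3 (normexp, offset 50; loess within blocks, span 0.3), and the amodiaquine pair was fitted with lmFit and eBayes, with 1 residual degree of freedom; no array was dropped or imputed. A background recorded as 0 (7079 Cy3 spots of amodiaquine replicate 1) did not count as above background, and 58 SP spots without a Cy5 background were left out. Two-dye intensities carry no counting depth, so the number of arrays limits precision. The grid search and the pair fit were each tested on simulated data. The simulated pair had large changes and a dye bias smaller than its noise. It therefore does not show how the fit performs under the dye bias of these arrays. Exact permutation tests enumerated every sign flip with numpy, and ranks were computed with scipy 1.17.1.

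Named genes are the 20 highest mean ranks in at least 2 scans, the highest and lowest of each family, the 5 smallest p per direction for amodiaquine, the 5 highest and lowest ratios per scan, probes measured in both dyes on both amodiaquine arrays, and genes with several probes; for other lists, the 2 to 4 brightest. Cyp2j11, Adh5, Aldh9a1, Aldh2, Cyp2j5, Cyp2c23, Cyp3a11, Cyp1b1, Cyp27b1, Cyp4f16, Aldh1a3, Aldh1l1, Aldh1l2, Ugt8a and the dim markers fall outside this rule and were named after their values were seen. The members and lists were chosen with earlier results of these data known. Alternatives covered blocks used, intensity, names, files, normalization, background, filters, prior, model, authors' values and left-out scans. The other file of SP and of amodiaquine+SP served only as a second reading.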

Additional observations from a re-analysis of the deposited data

How the results depend on the processing

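Few enzyme spots rose above background, so most genes have a rank but no usable ratio, and 2 of the 3 treatments rest on 1 scan. Of the main comparisons, 110 values under another setting stayed on the same side of their threshold or within their spread. Ranks, counts and percentages cannot change sign, and the differences from Cyp, which could, did not. Ratios of single probes for amodiaquine were not among these values, and some did change sign. With displaced blocks moved back, Akr1a1 probe 7237 went from 0.95 to -0.07 and probe 5591 from 0.14 to -0.53. The Aldh rank of 0.474 became 0.443 with all blocks, 0.445 with all 6 files and 0.416 with displaced blocks moved back. Naming probes by spot number, without the reordering of blocks, gave 0.640 for Aldh and 0.590 for Gst, in place of 0.743. For amodiaquine, loess over the whole array called 17 probes (2 higher, 15 lower) in place of 0, with 0 enzyme probes among them; each other setting called 0, including a fit of all 6 arrays with a dye term (0 of 4426), which takes both readings of a scan for separate arrays. Past 1.5-fold in either direction were 1 of 4 well-measured enzyme probes for SP (25.0%) and 1 of 3 for amodiaquine+SP (33.3%). Of 1015 named probes for SP, 5.62% were past it toward Cy5 and 13.2% toward Cy3. For amodiaquine+SP these shares were 7.55% and 8.97% of 914. With the amodiaquine pair's dye bias subtracted, both enzyme shares became 0.0% (over 2 probes and 1). The enzyme share for amodiaquine+SP was also 0.0% in the other file of the scan (1 probe). Fewer probes could be measured under these settings.

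Leaving out each scan in turn gave ranks of 0.363 to 0.433 for Cyp, 0.711 to 0.916 for Adh, 0.466 to 0.483 for Aldh, 0.535 to 0.628 for Akr and 0.726 to 0.772 for Gst. Differences from Cyp ran from 0.358 to 0.537 for Adh, 0.050 to 0.106 for Aldh, 0.160 to 0.221 for Akr and 0.297 to 0.380 for Gst. Moving displaced blocks back, ranking within the block and counting a background of 0 were added after seeing the data. Treated and vehicle RNA were paired within each array, and the amodiaquine fit used these ratios. No pairing across arrays was possible because the labels mark arrays as forward or reverse and give no shared replicate numbers.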
